A study of Mus musculus with 4 samples.

Results

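Iron handling in the ischemic mouse brain was followed through 8 genes, Fth1, Ftl1, Hmox1, Slc40a1, Trf, Cp, Slc11a2 and Ireb2, which are 8 of the 31053 genes of the deposited tables. The genes were chosen by a difference already seen in these same libraries, that of the Fth1 and Ftl1 levels between sham and day 1 microglia, so that difference is described here and not tested. The question put to the data was which other cell classes share it, and how the genes of heme breakdown, iron export and iron transport behaved beside it. Single-cell RNA-seq had been made from the ipsilateral hemispheres of male mice, 8 weeks old according to the labels, of the C57/BL6 strain. The groups were sham surgery, taken at day 7, and days 1, 3 and 7 after transient middle cerebral artery occlusion (tMCAO), in which a filament blocks the artery and is then withdrawn so that blood returns. There was 1 library per group, and no source says how many mice entered a library. All mice were perfused with PBS, and the tissue was digested with papain and cleaned on Percoll.

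Ferritin stores iron in a shell built of heavy chains (Fth1), which oxidize the iron, and light chains (Ftl1), which help the mineral core to form. Iron arrives bound to transferrin (Trf), crosses the endosomal membrane through DMT1 (Slc11a2), leaves the cell through ferroportin (Slc40a1) and is oxidized for the journey by ceruloplasmin (Cp), while heme oxygenase 1 (Hmox1) frees iron from heme. In the brain, oligodendrocytes are known as the cells richest in iron and ferritin, and microglia and macrophages take up heme and cell debris after injury. When cells are short of iron, the iron regulatory proteins, of which Ireb2 encodes IRP2, bind a short hairpin called the iron-responsive element (IRE): in the 5′ UTR of a messenger it blocks translation, and in the 3′ UTR it protects the messenger from decay.

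The hairpins are shown because they divide the 8 genes by how iron acts on them, which an RNA count does not register when the control is on translation. The UTRs of the GENCODE vM21 annotation (mouse genome GRCm38) were searched for the letters CNNNNNCAGTGN, on the transcribed strand, with at least 4 of the 5 bases before and after the loop able to pair. Capitals mark the bulged C and the loop CAGTGN.
Fth1: ggtttcctgCttcaaCAGTGCttgaacgg
Ftl1: tgtgtcttgCttcaaCAGTGTttgaacgg
Slc40a1: ttccaacttCagctaCAGTGTtagctaag
Slc11a2: gggagccatCagagcCAGTGTgtttctat
Those of Fth1, Ftl1 and Slc40a1 lie in 5′ UTRs, at chr19:9982729-9982757 on the plus strand for Fth1, chr7:45459782-45459810 on the minus strand for Ftl1 and chr1:45925468-45925496 on the minus strand for Slc40a1, with 5 of 5 pairs each. That of Slc11a2 lies in the 3′ UTR of the transcript Slc11a2-205, in exon 16, at chr15:100395156-100395184 on the minus strand, with 4 of 5 pairs. The same letters were found in the 5′ UTR of 175 of 20831 genes (0.840%) and in the 3′ UTR of 856 of 21589 genes (3.96%). They were not found in the UTRs of Hmox1, Trf, Cp or Ireb2, which says only that these letters are not there. The match is a description of the sequence and not of binding.

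The 4 libraries held 69392755 to 104023002 UMIs (unique molecular identifiers, counted once per captured RNA molecule) in 11744 to 17922 cells, and 44360 of 59429 cells were kept. Markers placed 41135 of the kept cells in a class, and each class is called by its markers with the ending "-like". No pair of libraries shared more than 88 cell barcodes. Levels are given as CPM, the UMIs of a gene per 1000000 UMIs of all cells of a class in a library, and each comparison is the ratio of 2 such sums with its exact 95% interval. These intervals cover counting error only, because with 1 library per group the spread between mice is unknown and no p-value can be given. A class entered a comparison with at least 50 cells in both libraries, and a ratio of at least 1.5 was counted as higher. The microglia-like class held 130 cells in sham, 494 on day 1, 364 on day 3 and 298 on day 7, and all 8 microglia markers were detected in the sham cells. What is counted is the 3′ end of the messenger, so levels of different genes are not scaled by length.

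Ferritin heavy chain RNA was about as much higher on day 1 in endothelial-like cells, taken whole, as in microglia-like cells. Within the 5 endothelial-like clusters compared, its ratio ran from 1.44 to 2.32 and passed 1.5 in 3, against 2.23 in the microglia cluster. The light chain passed a ratio of 1.5 in microglia-like cells and in none of the other 7 classes compared. Astrocyte-like cells lay close to both, but their ratios moved with the settings and passed 1.5 for both chains under 2 of them, and border macrophage-like and monocyte-like cells, too few to be compared, had more of both chains on day 1. In microglia-like cells Fth1 stood at 5506 CPM in sham, 12005 on day 1, 9101 on day 3 and 8491 on day 7. Ftl1 stood at 2960, 8012, 4711 and 4017 CPM in the same order. Both genes were highest on day 1 and lay above sham on each day. The day 1 ratio that led to the choice of these genes was 2.18 (95% interval 2.09 to 2.27) for Fth1 and 2.71 (2.56 to 2.86) for Ftl1. Of 3160 microglia-like genes with enough UMIs to compare, 25.6% were also at least 1.5 times higher on day 1, so a ratio of that size was common in these cells. On day 3 the ratio was 1.65 (1.58 to 1.73) for Fth1 and 1.59 (1.5 to 1.69) for Ftl1, and 15.2% of genes passed 1.5. On day 7 it was 1.54 (1.47 to 1.61) for Fth1 and 1.36 (1.28 to 1.44) for Ftl1, and 12.9% of genes passed. The day 7 values rest in part on few cells, since in the 260 of 298 cells that fell into the microglia cluster led by Ccl4 and Cx3cr1 the ratios were 1.33 (1.27 to 1.40) and 1.10 (1.03 to 1.18). With classes named from clusters they were 1.24 and 1.09, and the stricter gate also took Fth1 below 1.5, to 1.46.

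The microglia-like libraries differed in more than ferritin. The median depth of a microglia-like cell was 1973 UMIs in sham and 3694 on day 1, and genes of ribosomal proteins took 9.22% of the UMIs in sham and 17.9% on day 1. The nuclear RNA Malat1 stood at 30451 CPM in sham and 7971 on day 1, and the hemoglobin genes, markers of red blood cells, at 5497 and 918 CPM. The part of these shifts in the ferritin ratios was not tested directly. With mitochondrial, ribosomal protein and 3 abundant noncoding genes taken out of the total, the ratios were 2.34 for Fth1 and 2.91 for Ftl1, and with cells thinned to 1000 UMIs they were 2.33 and 3.38. Thinning leaves out cells with fewer UMIs, which were 31 of 130 microglia-like cells in sham, 86 of 494 on day 1, 104 of 364 on day 3 and 73 of 298 on day 7. Among those thinned, the median microglia-like cell held 3 Fth1 UMIs in sham, 9 on day 1 and 6 on days 3 and 7. For Ftl1 the medians were 2, 7, 3 and 3 UMIs. The 10th percentile of Fth1 was 0 in sham and 3 on day 1 while the 90th was 10 and 20, so low and high cells both lay higher on day 1.

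**Figure D1:**
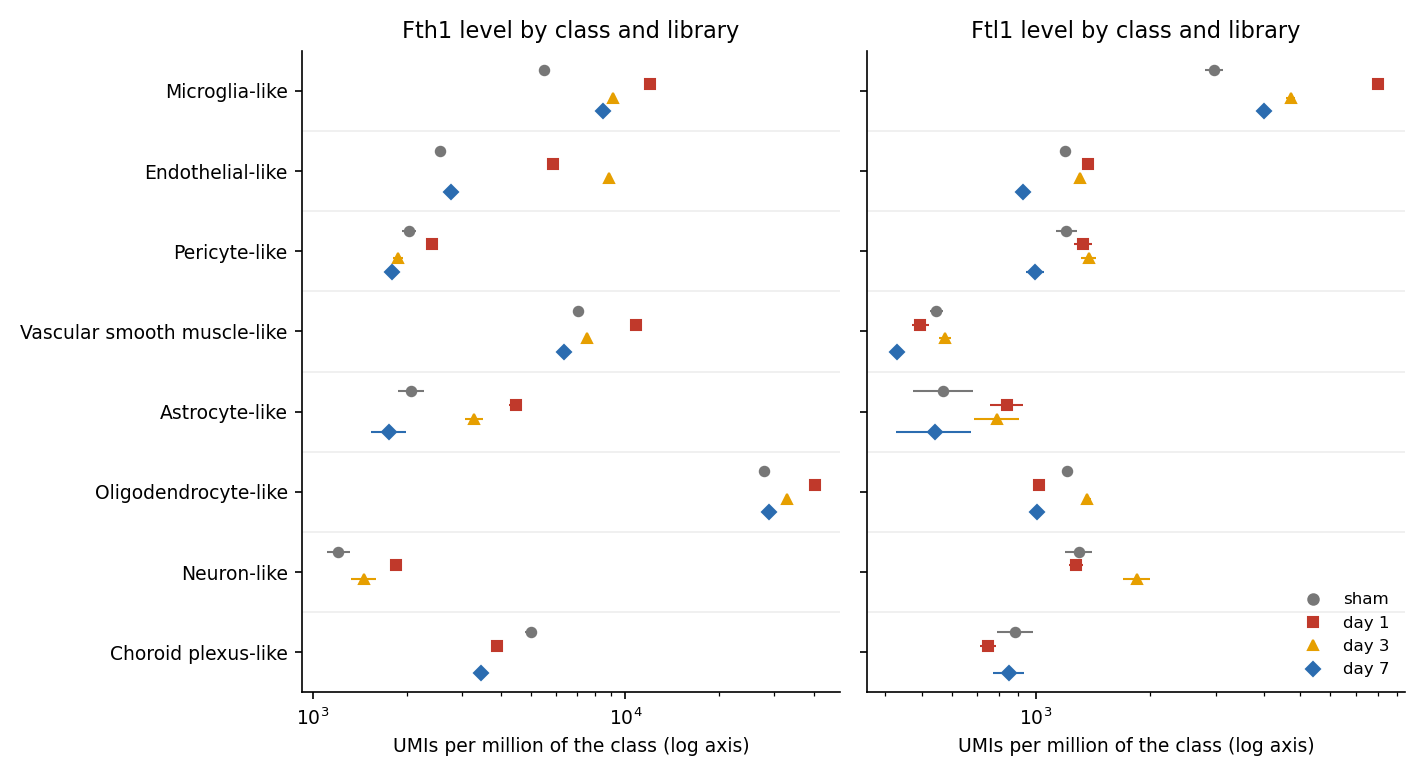
Fth1 (left) and Ftl1 (right) in each marker-gated class and library, in CPM on a log axis, 1 point per library with its exact 95% counting interval. Oligodendrocyte-like cells lie highest for Fth1, at 27843 to 40442 CPM, and the day 1 point of the microglia-like class lies above its sham point in both panels.

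Across the 8 classes with enough cells, the Fth1 ratio of day 1 over sham was at least 1.5 in 5 classes and above 1 in 7. In endothelial-like cells, which line the vessels and form the blood-brain barrier, Fth1 stood at 2548 CPM in sham, 5853 on day 1, 8862 on day 3 and 2775 on day 7. The day 1 ratio was 2.30 (2.27 to 2.32), where 6.28% of endothelial-like genes were at least 1.5 times higher and 98.9% of genes had a lower ratio than Fth1. Unlike in microglia-like cells, the endothelial-like level was highest on day 3, with a ratio of 3.48 (3.44 to 3.52), and close to sham on day 7, with 1.09 (1.08 to 1.10). Without the cluster led by Ackr1 and Lcn2, described below, day 3 was not the highest, with a ratio of 2.12 against 2.23 on day 1. Other measures of this class moved as well: the 6 neutrophil markers summed to 2.02, 7.05, 63.7 and 4.01 CPM over sham and days 1, 3 and 7, with 1, 2, 0 and 1 of them at 0, and the abundant noncoding RNA Gm42418 stood at 13675, 1608, 2488 and 6104 CPM. Their part in the Fth1 ratios was not tested beyond the totals without such RNA, which gave 2.35 on day 1. In astrocyte-like cells Fth1 stood at 2058, 4452, 3280 and 1750 CPM over the 4 libraries, with a day 1 ratio of 2.16 (1.95 to 2.40) that ran from 1.36 with a stricter marker gate to 2.80 with cells of up to 6000 genes. This class held 74 cells in sham and 196 on day 1, and 20% of its genes were at least 1.5 times higher. Among its cells thinned to 1000 UMIs, the median held 1 Fth1 UMI in sham and 2 on day 1. The 90th percentiles were 3 and 7. For both chains together the medians were 2 and 2 UMIs and the 90th percentiles 4 and 9.

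Smooth muscle-like, neuron-like and oligodendrocyte-like cells lay close to the size set for a difference. Vascular smooth muscle-like cells had 7035 CPM of Fth1 in sham and 10789 on day 1, a ratio of 1.53 (1.51 to 1.56), with 6.34% of genes past the same ratio. Neuron-like cells had 1206 and 1841 CPM, a ratio of 1.53 (1.39 to 1.67), with 22.3% of genes past it. Oligodendrocyte-like cells, the myelin-forming cells, had 27843 and 40442 CPM, a ratio of 1.45 (1.44 to 1.46), with 7.11% of genes past 1.5. The oligodendrocyte-like ratio fell short of 1.5, but in CPM the difference from sham was larger there than in any other class compared. Pericyte-like cells, the mural cells of capillaries, had 2030 and 2404 CPM of Fth1, a ratio of 1.18 (1.11 to 1.26), where 11.5% of genes passed 1.5. In choroid plexus-like cells, the epithelium that makes cerebrospinal fluid, Fth1 was lower on day 1, at 3892 CPM against 4999, a ratio of 0.779 (0.741 to 0.819). The direction turned to 1.18 when cells of up to 6000 genes were kept, which raised the class from 92 to 258 cells in sham. In that class 5.25% of genes were at least 1.5 times higher and the median gene had a ratio of 0.754.

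The light chain divided the classes differently. Ftl1 had a day 1 ratio of 1.47 (1.20 to 1.82) in astrocyte-like, 1.15 (1.13 to 1.18) in endothelial-like and 1.11 (1.02 to 1.20) in pericyte-like cells. It was 0.985 (0.899 to 1.08) in neuron-like, 0.908 (0.850 to 0.970) in vascular smooth muscle-like, 0.846 (0.752 to 0.955) in choroid plexus-like and 0.843 (0.819 to 0.869) in oligodendrocyte-like cells. By the size set, 1 of 8 classes passed for Ftl1 and the same 1, microglia-like, passed for both chains. The microglia-like value is among those that led to the choice of the genes, so its place in this order is a description. The astrocyte-like Ftl1 ratio was 1.65 with cells of up to 6000 genes, 2.04 with classes named from clusters and 0.980 after thinning each cell to 1000 UMIs.

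**Figure D2:**
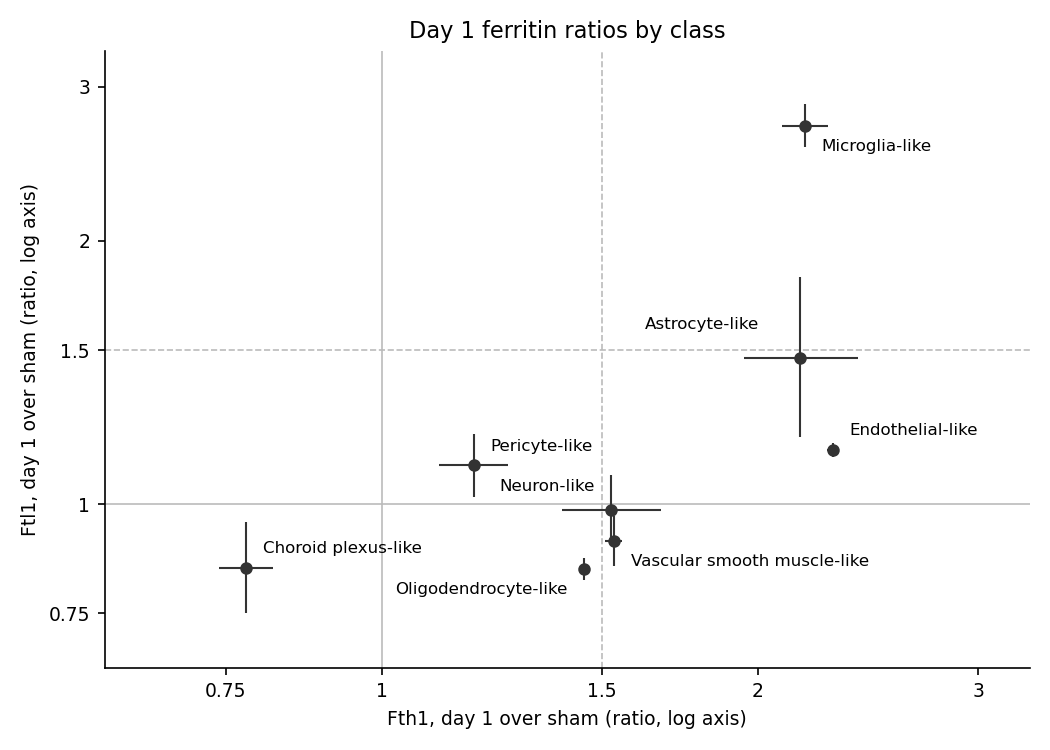
Ratio of CPM on day 1 over sham for Fth1 and Ftl1 in the 8 classes with at least 50 cells in both libraries, with exact 95% intervals that cover counting error only. The microglia-like class is the one with both ratios past 1.5, at 2.18 and 2.71, while the endothelial-like class has 2.30 for Fth1 and 1.15 for Ftl1.

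The share of Fth1 in the ferritin UMIs of a class was therefore lower than sham on day 1 in microglia-like cells and higher in endothelial-like cells. In microglia-like cells the heavy chain made up 65.0% of ferritin UMIs in sham, 60.0% on day 1, 65.9% on day 3 and 67.9% on day 7. In endothelial-like cells it made up 68.1%, 80.9%, 87.1% and 75%. Oligodendrocyte-like cells stayed between 95.8% and 97.5% and vascular smooth muscle-like cells between 92.8% and 95.6%, so both classes held nearly all their ferritin RNA as heavy chain. In neuron-like cells the heavy chain made up 48.2% in sham and 59.0% on day 1. Within single cells thinned to 1000 UMIs, Fth1 and Ftl1 had a Pearson correlation across cells of 0.31 in sham and 0.54 on day 1 in microglia-like cells, and of 0.17 in sham and on day 1 in endothelial-like cells. These correlations are descriptions over cells of 1 library each.

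Oligodendrocyte RNA within other classes was measured beside these levels, since oligodendrocyte-like cells hold the most Fth1. Whether it was free RNA or came from doublets, which were left in, was not tested. In endothelial-like cells the summed level of the 6 oligodendrocyte markers was 0.646%, 0.435%, 0.443% and 0.678% of that in oligodendrocyte-like cells over sham and days 1, 3 and 7, with none of the 6 at 0. Trf, which oligodendrocyte-like cells also hold in quantity, reached 0.510%, 0.447%, 0.505% and 0.640% of its oligodendrocyte-like level there, about as much as the markers. Fth1 reached 9.15%, 14.5%, 27.0% and 9.62%, and the marker share was lower on days 1 and 3 than in sham. In microglia-like cells the same markers reached 1.04%, 0.411%, 0.435% and 1.01%, and Fth1 19.8%, 29.7%, 27.7% and 29.5%. In neuron-like cells on day 1 the markers reached 0.623% and Fth1 4.55%. The part of such oligodendrocyte RNA in these Fth1 levels was not tested.

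On day 1 the border macrophage-like and monocyte-like classes, both with fewer than 50 cells, had the highest Fth1 levels after the oligodendrocyte-like class and the highest Ftl1 levels of all classes. In border macrophage-like cells, which carry markers of the macrophages of the meninges and perivascular spaces, Fth1 was at 11226 CPM in 16 sham cells and 37075 in 48 day 1 cells. Ftl1 was at 10229 CPM in the sham cells and 24782 in those of day 1. In monocyte-like cells Fth1 was at 7635 CPM in 9 sham cells and 28925 in 18 day 1 cells, and Ftl1 at 3701 and 13187 CPM. In both classes both chains were thus higher on day 1, with ratios from 2.42 to 3.79, but these rest on too few cells to enter the comparison. Other markers moved in these cells too, and their part was not tested. In monocyte-like cells the oligodendrocyte, neutrophil and border macrophage markers summed to 14.5, 72.6 and 116 CPM in sham. On day 1 these were 567, 1535 and 803. The microglia and endothelial markers were lower on day 1, at 319 and 767 CPM against 523 and 1031. In border macrophage-like cells the monocyte markers were at 13.7 and 329 CPM, the oligodendrocyte markers at 68.3 and 19.7. By day 3 Fth1 was at 10268 CPM in border macrophage-like cells, below sham, and at 10215 CPM in monocyte-like cells, still above sham. In fibroblast-like cells, with 32 cells in sham and 130 on day 1, Fth1 was at 5335 and 16238 CPM while Ftl1 was at 2043 and 2117 CPM, which is the endothelial-like pattern and not that of the macrophages. This too rests on too few sham cells to enter the comparison. The neutrophil markers summed to 0 CPM there in sham and 500 on day 1, and the fibroblast markers to 15809 and 9114 CPM. Cells that no marker set claimed, 512 in sham and 1102 on day 1, had 4378 and 12697 CPM of Fth1 and 1641 and 3610 CPM of Ftl1. In these unclaimed cells the oligodendrocyte markers summed to 390 and 1249 CPM and the border macrophage markers to 915 and 624 CPM. The part of either in the ferritin levels was not tested.

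The endothelial-like class was then divided by clusters computed without the iron and heme genes. This split was chosen after the levels had been seen, and several clusters came mostly from 1 library. A cluster led by Ackr1, Lcn2, Lrg1, Selp and Sele, genes of venular and inflamed endothelium, held 3 cells in sham, 51 on day 1, 676 on day 3 and 10 on day 7. Its Fth1 level was 18953 CPM on day 1 and 26577 on day 3, against 32801 CPM in oligodendrocyte-like cells on day 3, while its Ftl1 level was 1353 and 1194 CPM. On day 3 this cluster held 12% of the endothelial-like cells and 49.4% of their Fth1 UMIs. Without it, Fth1 in the other endothelial-like cells was at 5372 CPM on day 3 and the ratio over sham was 2.12 (2.09 to 2.15), against 3.48 with it. On day 1 the level without it was 5653 CPM and the ratio 2.23 (2.20 to 2.26), so that day 3 was then not the highest.

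In the clusters with at least 50 cells in sham as well, the Fth1 ratio ran from 1.44 to 2.32 on day 1 over 5 clusters, of which 3 passed 1.5. It ran from 1.17 to 2.25 on day 3 over 6 clusters, of which 4 passed, and from 0.868 to 1.22 on day 7 over 7 clusters, of which 0 passed. The higher Fth1 level on day 1 was therefore present in all 5 clusters compared, to different degrees. The Ftl1 ratio on day 1 ran from 0.816 to 1.40 over the same clusters and passed 1.5 in 0 of them. The cluster led by Slc26a10, Sema3g and Alpl, with arterial genes, had 1560 CPM of Fth1 in sham and 3622 on day 1. The cluster led by Adgrg6, Il1r1 and Vcam1 had 5999 CPM in sham already, and 8724 on day 1. Large clusters with fewer than 50 sham cells could not be compared. That led by Hspa1b and Hspa1a held 1592 of the 6626 day 1 cells and 37505 of their 97983 Fth1 UMIs, at 6359 CPM. That led by Scgb3a1 and Ankrd37 held 2006 of the 5633 day 3 cells, at 4456 CPM. The part of such differences in cluster make-up in the class ratios was not tested.

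**Figure D3:**
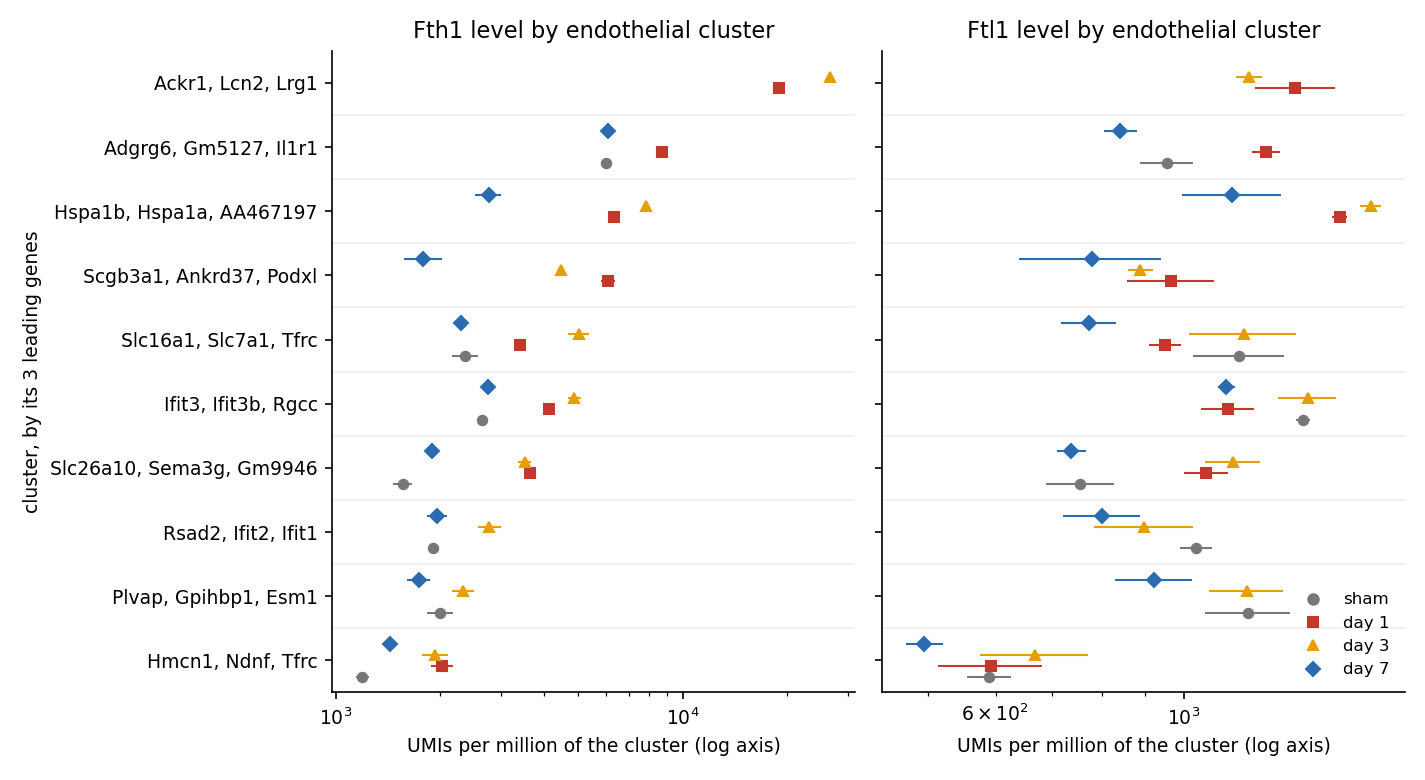
Fth1 and Ftl1 in CPM in each endothelial-like cluster and library with at least 50 cells, clusters being labelled by leading genes. The cluster led by Ackr1 and Lcn2 lies to the right of all others for Fth1, at 18953 CPM on day 1 and 26577 CPM on day 3, and among the others for Ftl1.

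On day 1 heme oxygenase 1 differed from sham by a larger ratio than ferritin did in microglia-like cells. In microglia-like cells Hmox1 stood at 74.3 CPM in sham, 567 on day 1, 161 on day 3 and 71.9 on day 7. The day 1 level was far above the other 3 libraries, with a ratio of 7.63 (5.4 to 11.1). On day 3 the ratio was 2.16 and on day 7 it was 0.968 (0.635 to 1.5), but after thinning to 1000 UMIs these were 7.23 and 4.62 and that of day 1 was 23.3. Of the cells thinned to 1000 UMIs, 2.02% of microglia-like cells had an Hmox1 UMI in sham (2 of 99), 21.8% on day 1 (89 of 408), 8.08% on day 3 and 8.44% on day 7. Without thinning the shares were 20%, 41.7%, 21.2% and 19.8%, at the depths given above for sham and day 1. In neuron-like cells on day 1, with a median of 2923 UMIs and little Hmox1 known in neurons, the share was 1.21% after thinning and 2.65% without.

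On day 1 the 89 thinned microglia-like cells with an Hmox1 UMI held 23.6 ferritin UMIs on average and the others 16.9. Among the classes plotted, border macrophage-like cells had the highest Hmox1 level on day 1, 6043 CPM in 48 cells against 273 CPM in the 16 sham cells. The 6 border macrophage markers reached 0.4% of their own level in microglia-like cells in sham and 1.60% on day 1, with 1 of 6 at 0 in each, while Hmox1 in microglia-like cells reached 27.2% and 9.38% of the border macrophage-like level. The part of border macrophage RNA in the Hmox1 level of microglia-like cells was not tested.

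Of the other 7 classes compared, 6 had a higher Hmox1 level on day 1 than in sham, though most levels were low and the neuron-like interval, 0.884 to 229 from 1 and 20 UMIs, held 1. In endothelial-like cells Hmox1 stood at 13.6, 36.3, 22.4 and 8.20 CPM, with ratios over sham on days 1, 3 and 7 of 2.67 (2.28 to 3.14), 1.65 (1.39 to 1.97) and 0.604 (0.494 to 0.739). In oligodendrocyte-like cells it stood at 7.94, 20.1, 10.2 and 3.91 CPM, with a ratio of 2.54 (1.84 to 3.57) on day 1 and 0.493 (0.296 to 0.807) on day 7. Both classes, each taken whole, thus had more than sham on day 1 and less than sham on day 7. The summed level of the 8 microglia markers was 48.1, 116, 91.8 and 69.3 CPM in endothelial-like cells and 21.2, 72.6, 60.7 and 53.9 CPM in oligodendrocyte-like cells, with none at 0. The markers thus moved with Hmox1 on day 1 but lay above sham on day 7, and their part in the Hmox1 ratios was not tested. In vascular smooth muscle-like cells it was at 2.36 CPM in sham and 17.6 on day 1, a ratio of 7.43 (3.81 to 15.8), and the microglia markers were at 26.8 CPM with 0 of 8 at 0 and 59.8 CPM with 1 of 8 at 0. In pericyte-like cells it was at 5.08 and 26.8 CPM, a ratio of 5.27 (1.84 to 20.7) from 4 and 28 UMIs, with the markers at 83.8 CPM with 1 of 8 at 0 and 143 CPM with 0 of 8 at 0. In choroid plexus-like cells it was at 29.5 and 17.3 CPM, a ratio of 0.587 (0.296 to 1.27), whose interval holds 1.

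Astrocyte-like cells had 4 Hmox1 UMIs in sham and 61 on day 1, or 18.7 and 136 CPM, a ratio of 7.25 (2.69 to 27.5). The 61 UMIs came from few cells, since 10.2% of the 196 day 1 cells had one. The 13 thinned astrocyte-like cells with an Hmox1 UMI on day 1 held 11.6 ferritin UMIs on average and the others 2.98. The summed level of the 8 microglia markers in astrocyte-like cells was 56.1 CPM in sham, with 5 of 8 at 0, and 189 CPM on day 1, with 1 of 8 at 0, or 0.219% and 1.00% of the microglia-like level. Hmox1 reached 25.2% and 23.9% of its microglia-like level there, and Ftl1 19.3% and 10.5%. The part of microglial RNA in these astrocyte-like values was not tested further.

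**Figure D4:**
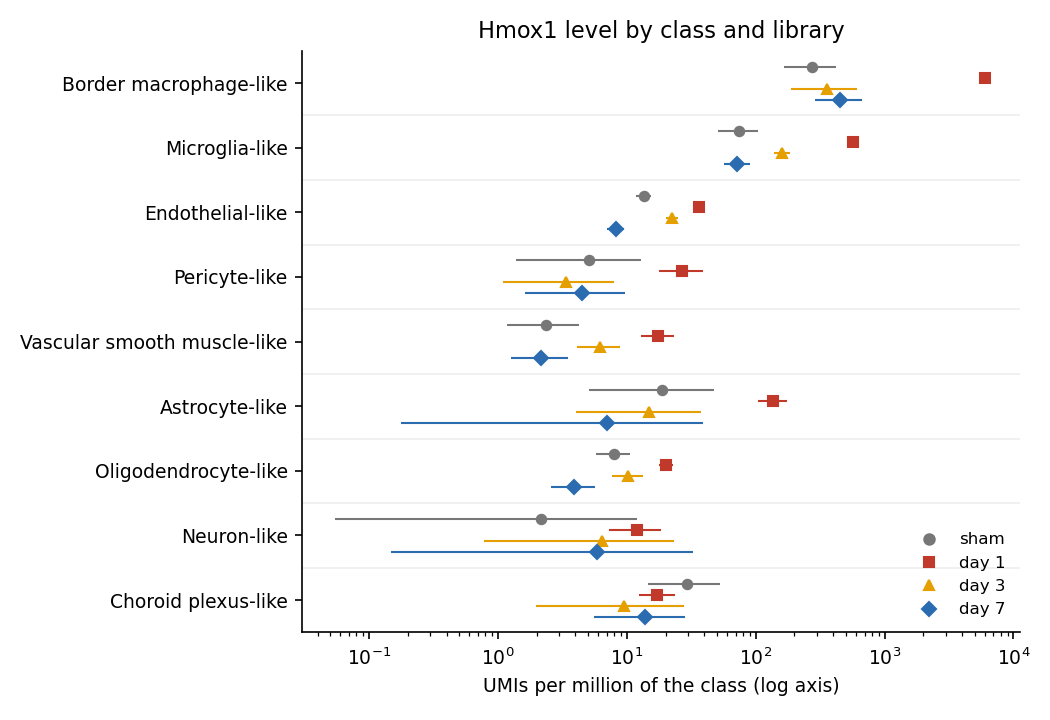
Hmox1 in CPM on a log axis by class and library, with exact 95% counting intervals and classes of any size drawn. The day 1 point is the highest of the 4 libraries in microglia-like cells, at 567 CPM, and in border macrophage-like cells, at 6043 CPM from 48 cells.

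Ferroportin, the exporter, was found mainly in endothelial-like cells and was lower there on day 3. Slc40a1 stood at 255 CPM in sham, 266 on day 1, 143 on day 3 and 252 on day 7, so that day 3 stood apart from the other 3 libraries. On days 1, 3 and 7 the ratios over sham were 1.04 (0.999 to 1.09), 0.562 (0.534 to 0.592) and 0.989 (0.949 to 1.03). Without the cluster led by Ackr1 and Lcn2 the day 3 ratio was 0.602 (0.571 to 0.635). The share of endothelial-like cells with an Slc40a1 UMI was 23.2%, 22.9%, 15.3% and 22.1% after thinning and 47.8%, 41.2%, 29.4% and 39.8% without, at median depths of 2900, 1863, 2225 and 2000 UMIs. In oligodendrocyte-like cells in sham it was 0.133% after thinning and 1.30% without, at a median depth of 7895 UMIs.

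Within the endothelial-like class Slc40a1 was highest in the cluster led by Hmcn1, Ndnf and Tfrc, the last of which encodes the transferrin receptor. This cluster had 575, 713, 503 and 486 CPM over sham and days 1, 3 and 7. The cluster led by Plvap and Gpihbp1, genes of fenestrated vessels, had 23.6 CPM in sham, 12.2 on day 3 and 28.6 on day 7. The highest of these levels was thus more than 10 times the lowest in each library that holds both clusters. Over the 6 clusters with enough sham and day 3 cells the day 3 ratio ran from 0.516 to 0.874, below 1 in all 6 but lower by a factor of 1.5 in 2 of them. One of these, the cluster led by Plvap, had 6 and 4 UMIs and an interval of 0.107 to 2.18. The interval of the cluster led by Hmcn1, 0.727 to 1.04, held 1 as well. The largest day 3 cluster, led by Scgb3a1 and Ankrd37, held 2006 of the 5633 day 3 cells. It had fewer than 50 cells in sham and was not compared, and its day 3 level was 272 CPM. The cluster led by Hspa1b and Hspa1a, not compared either, had 125 CPM in 640 day 3 cells. A lower day 3 level was thus not shown for every cluster. In microglia-like cells Slc40a1 stood at 63.0, 47.0, 63.4 and 56.8 CPM, with a day 1 ratio of 0.745 (0.487 to 1.17). The 7 endothelial markers reached 1.15% to 2.59% of their own level in microglia-like cells, with none at 0, and Slc40a1 17.7% to 44.2%. A difference in exporter RNA on day 1 was thus not detectable at this depth in microglia-like cells, where the ratio ran from 0.448 to 1.09 over the alternatives. Border macrophage-like cells, 11 to 48 per library, had 150, 161, 246 and 373 CPM of Slc40a1.

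Ceruloplasmin, the ferroxidase that works with ferroportin, was highest in fibroblast-like and pericyte-like cells and was higher after tMCAO in the classes of the vessel wall. In pericyte-like cells Cp stood at 339 CPM in sham, 803 on day 1, 486 on day 3 and 794 on day 7, with ratios of 2.37 (2.06 to 2.73), 1.43 (1.24 to 1.66) and 2.34 (2.04 to 2.69). In endothelial-like cells it stood at 167, 193, 433 and 291 CPM, with ratios of 1.15 (1.09 to 1.21), 2.59 (2.47 to 2.71) and 1.74 (1.66 to 1.82), of which that of day 1 fell to 0.928 with cells of up to 6000 genes. In vascular smooth muscle-like cells it stood at 31.8, 83.5, 45.9 and 98.5 CPM, with ratios of 2.63 (2.13 to 3.25), 1.45 (1.17 to 1.80) and 3.10 (2.60 to 3.72). With at most 5% mitochondrial UMIs, which left 81 of the 674 sham cells, the day 1 and day 3 ratios were 1.58 and 0.880. Endothelial-like cells were thus highest on day 3, the library in which both mural classes were lowest of the days after tMCAO. Without the cluster led by Ackr1 and Lcn2, which had 908 CPM of Cp on day 3, the endothelial-like ratio on day 3 was 2.03 (1.94 to 2.13). The clusters of this class differ in size between libraries. Within them Cp passed 1.5 in 3 of 5 on day 1, with ratios from 0.977 to 1.82. It passed in 4 of 6 on day 3, with 1.33 to 3.20, and in 2 of 7 on day 7, with 1.09 to 1.92. The cluster led by Scgb3a1 and Ankrd37, with 2006 of the 5633 day 3 cells, had too few sham cells to be compared. Its Cp level on day 3 was 310 CPM.

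Fibroblast-like cells had 520 CPM of Cp in 32 sham cells, and 775, 1047 and 851 CPM on days 1, 3 and 7. The 5 fibroblast markers reached 2.02%, 4.14%, 3.20% and 3.48% of their own level in pericyte-like cells, with 1 of 5 at 0 in sham and on day 7. Cp reached 65.2%, 104%, 46.5% and 93.3% of the fibroblast-like level there. In vascular smooth muscle-like cells the markers reached 0.868%, 2.96%, 1.51% and 1.77% and Cp 6.11%, 10.8%, 4.39% and 11.6%. The marker level moved with the Cp level on day 1 in both mural classes, and its part in the ratios was not tested. Microglia-like cells had 1 Cp UMI in sham and 28 on day 1, at 2.25 and 12.6 CPM.

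Transferrin, the carrier of iron outside cells, was highest in the oligodendrocyte-like class. Trf stood at 4926 CPM in sham, 7275 on day 1, 6750 on day 3 and 3196 on day 7 in that class, the highest level of any class in each library. The ratios over sham on days 1, 3 and 7 were 1.48 (1.46 to 1.5), 1.37 (1.35 to 1.39) and 0.649 (0.638 to 0.660), and on day 7 Fth1 in the same cells was at 1.04 (1.03 to 1.04). The 2 genes thus lay above sham together on days 1 and 3 and parted on day 7. Microglia-like cells had 545, 546, 724 and 597 CPM of Trf, with a ratio of 1.00 (0.873 to 1.16) on day 1 and 1.33 (1.15 to 1.54) on day 3. These levels were 11.1%, 7.51%, 10.7% and 18.7% of the oligodendrocyte-like level, against marker shares of 1.04% or less. After thinning, 37.4% of microglia-like cells had a Trf UMI in sham and 40.7% on day 1, and 3.17% and 3.58% of endothelial-like cells. Without thinning the shares were 65.4% and 70.0% in microglia-like and 7.63% and 7.21% in endothelial-like cells. The part of oligodendrocyte RNA in the endothelial-like Trf level, whose share lay close to that of the markers, was not tested. Choroid plexus-like cells had 362 CPM in sham, 455 on day 1 and 396 on day 7. Border macrophage-like cells, 11 to 48 per library, had 1188, 431, 1748 and 1399 CPM over sham and days 1, 3 and 7. Fibroblast-like cells, 29 to 130 per library, had 902, 694, 657 and 651 CPM.

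**Figure D5:**
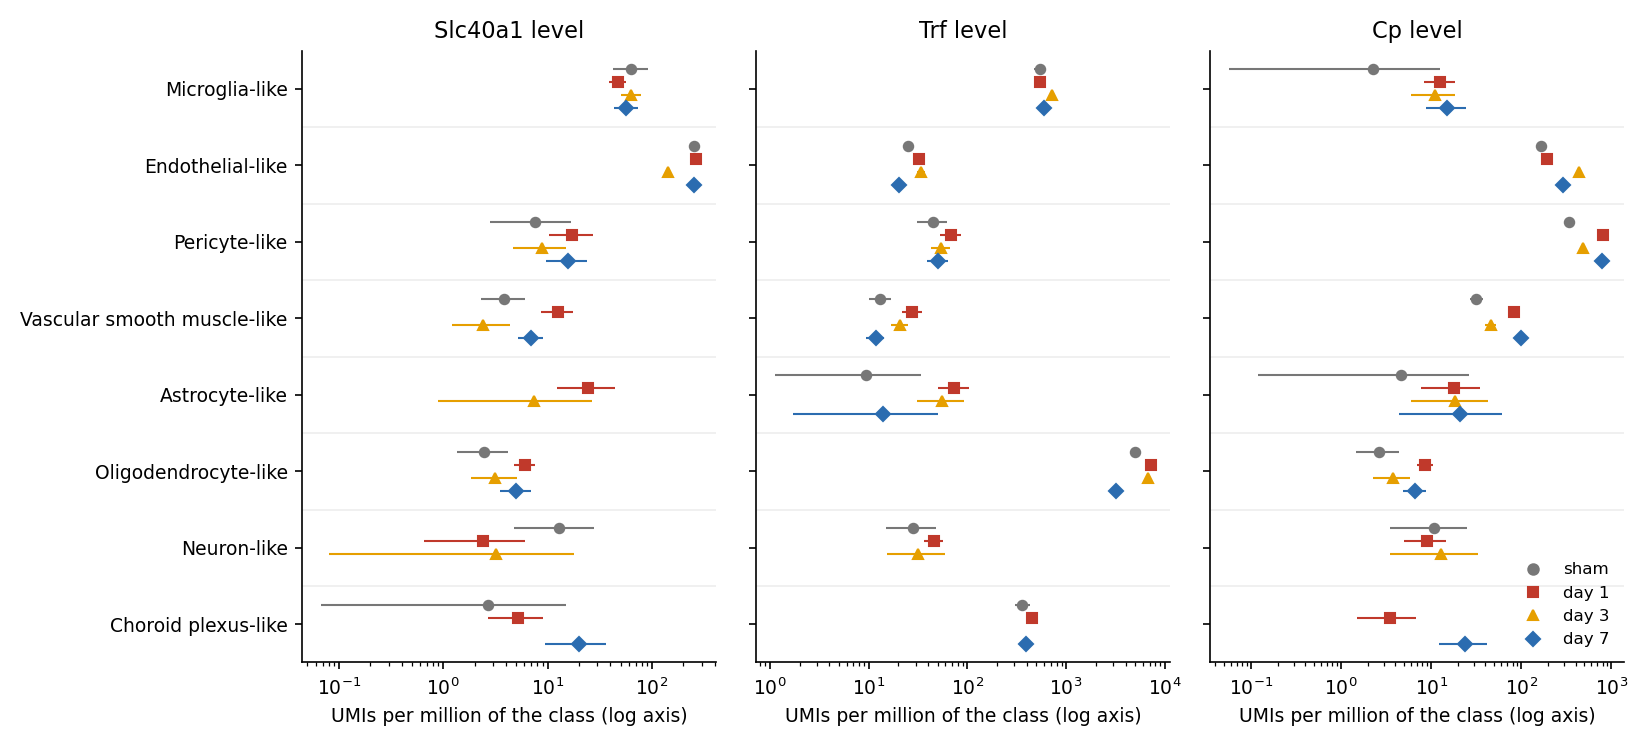
Slc40a1, Trf and Cp in CPM on log axes in classes and libraries with at least 50 cells, with exact 95% counting intervals. Levels of 0 are not drawn. Slc40a1 is highest in endothelial-like cells, where day 3 lies lowest at 143 CPM, Trf is highest in oligodendrocyte-like cells and Cp is highest in pericyte-like cells.

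The importer and the regulator were rare messengers in every class. Slc11a2, which carries a 3′ hairpin in 1 transcript, stood at 14.1, 13.7, 16.3 and 14.9 CPM in endothelial-like cells over sham and days 1, 3 and 7, with ratios from 0.972 to 1.16 whose intervals all hold 1. In oligodendrocyte-like cells it stood at 15.5, 23.9, 16.4 and 20.3 CPM, with a day 1 ratio of 1.54 (1.21 to 1.98). In microglia-like cells 7 UMIs in sham and 44 on day 1 gave a ratio of 1.26 (0.563 to 3.32), so that no difference was detectable at this depth. Among the 8 classes compared, Ireb2 was highest in neuron-like cells, at 64.6 CPM in sham, 70.3 on day 1 and 41.6 on day 3. In endothelial-like cells it stood at 28.5, 38.5, 36.1 and 47.2 CPM, with a ratio of 1.66 (1.48 to 1.85) on day 7. Within the clusters of this class, whose sizes differ between libraries, Ireb2 had day 7 ratios from 0.495 to 2.86. Of these 7 clusters 2 were higher and 1 lower by 1.5. In oligodendrocyte-like cells Ireb2 stood at 16.4, 23.5, 18.4 and 28.9 CPM, with a ratio of 1.76 (1.37 to 2.28) on day 7, and in vascular smooth muscle-like cells the day 7 ratio was 1.76 (1.30 to 2.40). In these 3 classes, where Ireb2 stayed below the 50 CPM needed for a count, day 7 was the library with the highest Ireb2 level. Pericyte-like cells had 34.3, 41.1, 41.3 and 52.1 CPM and reached that level on day 7, with a ratio of 1.52 whose interval, 0.961 to 2.46, holds 1. In microglia-like cells 12 UMIs in sham and 50 on day 1 gave a ratio of 0.836 (0.439 to 1.72).

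Counted by class, 3 of the 5 members with enough UMIs passed 1.5 in microglia-like cells on day 1, Fth1, Ftl1 and Hmox1, and the same 3 passed on day 3, against 25.6% and 15.2% of all genes. The first 2 of these are the genes the choice was made on. On day 7 it was 1 of 5 (Fth1), against 12.9%. By the same factor 0 of 5 were lower on day 1, against 31.6% of all genes. In endothelial-like cells 1 of 4 passed on day 1 (Fth1), against 6.28% of all genes. On day 3 it was 2 of 4 (Fth1 and Cp), against 5.95%, with 1 of 4 lower (Slc40a1), against 6.67%. On day 7 it was 1 of 4 (Cp), against 11.3%. In astrocyte-like cells 3 of 4 passed on day 1, Fth1, Hmox1 and Trf, against 20% of all genes. The Trf ratio there came from 2 UMIs in sham and 33 on day 1, a level of 0.190% and 1.01% of that in oligodendrocyte-like cells, beside 0.773% and 0.643% for the 6 oligodendrocyte markers. In astrocyte-like cells on day 3 it was 1 of 2 (Fth1), against 19.1%. In vascular smooth muscle-like cells 2 of 3 passed on day 1 (Fth1 and Cp), against 6.34%, and 1 of 3 on day 7 (Cp), against 19.8%. In pericyte-like cells 2 of 4 passed on day 1 (Trf and Cp), against 11.5%, and 2 of 5 on day 7 (Cp and Ireb2), against 20.7%. The pericyte-like Trf level was 0.902% in sham and 0.934% on day 1 of that in oligodendrocyte-like cells. The 6 oligodendrocyte markers reached 0.693% and 0.635% there. The pericyte-like Trf ratio on day 1 was 1.53 and 1.47 under the alternative that gave the lowest value. In neuron-like cells 1 of 3 passed on day 1 (Fth1), against 22.3%, and 1 of 3 was lower on day 3 (Ireb2), against 20.2%. In choroid plexus-like cells 0 of 3 passed on day 1, against 5.25%. In oligodendrocyte-like cells 0 of 3 passed on day 1, against 7.11% of all genes, and 1 of 3 (Trf) was lower on day 7, against 7.51% of all genes. On day 3, 0 of 4 passed in pericyte-like, 0 of 2 in vascular smooth muscle-like and 0 of 3 in oligodendrocyte-like cells, against 9.75%, 3.01% and 3.17%. On day 7, 0 of 2 passed in astrocyte-like and 0 of 3 in choroid plexus-like cells, against 19.1% and 24.9%. The members with enough UMIs differ between classes, and a member that is silent in a class could not be counted there.

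Of the other genes of iron and heme handling, 66 in 7 lists, few reached the level needed for a comparison. Over all 22 comparisons of a class and a day with sham, which share the sham library, list genes were compared 378 times, of which 67 were at least 1.5 times higher and 40 lower by that factor. Of all genes 14.1% were higher and 12.7% lower in the same comparisons. Among 13 genes of iron uptake and reduction, 2 could be compared in microglia-like cells and 0 passed 1.5 on day 1, against 25.6% of all genes. Slc11a1, a metal transporter of phagocyte vesicles, passed there on day 3 with 1.51 (1.07 to 2.16) and on day 7 with 1.54 (1.09 to 2.22), where 15.2% and 12.9% of all genes passed. The list passed 13 times in 29 comparisons over all classes and days and was lower 4 times. In endothelial-like cells the transferrin receptor Tfrc, highest there at 886 CPM on day 7, was lower on day 3 and higher on day 7 by at least 1.5, as were 6.67% and 11.3% of all genes. Different clusters make up this class in each library. Within the clusters compared, Tfrc was lower by that factor in 0 of 6 on day 3, with ratios from 0.714 to 1.24. It was higher in 7 of 7 on day 7, with 1.61 to 2.72, and in 4 of 5 on day 1, with 0.980 to 1.97. The cluster led by Scgb3a1 and Ankrd37, with 2006 of the 5633 day 3 cells, was not compared and had 501 CPM of Tfrc on day 3. On day 1 Tfrc passed in astrocyte-like cells with 6.02 (2.64 to 16.9) from 6 and 76 UMIs, in neuron-like cells with 2.26 (1.34 to 4.08) and in oligodendrocyte-like cells with 1.93 (1.65 to 2.27), where 20%, 22.3% and 7.11% of all genes passed. In the last it also passed on day 7 with 1.71 (1.44 to 2.04), where 17.1% of all genes did. Steap1, of a family of metalloreductases, was highest in choroid plexus-like cells, at 370 CPM on day 7. The largest ratios of this list were 25.8 (4.45 to 1038) for Steap3 in oligodendrocyte-like cells and 11.2 (1.94 to 451) for the metal importer Slc39a14 in microglia-like cells, both on day 1 and from very few UMIs in sham. Ratios of list genes given with an interval and not said to have passed stem from genes below the level needed for the count.

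Of 7 genes of iron export and oxidation, 0 reached the level in microglia-like, endothelial-like or oligodendrocyte-like cells. Heph, a membrane ferroxidase, had a ratio of 0.443 (0.286 to 0.672) in endothelial-like cells on day 3 and its highest level, 63.2 CPM, in astrocyte-like cells on day 7. Bmp6, the endothelial signal for hepcidin in the liver, had ratios over sham on days 1, 3 and 7 of 0.705 (0.502 to 0.985), 1.29 (0.970 to 1.73) and 1.32 (1.01 to 1.74) in endothelial-like cells and its highest level, 172 CPM, in fibroblast-like cells on day 1. In endothelial-like cells Heph stood at 4.73 CPM in sham and 2.09 on day 3, from 75 and 34 UMIs. This is below the level needed for the count, so Heph was not counted beside the exporter.

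Of 7 genes of iron regulation and ferritin turnover, 3 could be compared in microglia-like cells. The iron chaperone Pcbp2 passed 1.5 on each day, with 2.52 (1.77 to 3.70) on day 7, and Hif1a joined it on days 3 and 7, where 25.6%, 15.2% and 12.9% of all genes passed on days 1, 3 and 7. Epas1, which encodes HIF-2α, was highest in endothelial-like cells at 1481 CPM on day 7 and had a ratio of 2.57 (1.21 to 6.29) in microglia-like cells on that day. That ratio came from 8 UMIs in sham and 49 on day 7, at 18.0 and 46.4 CPM. The endothelial markers reached 2.59% and 2.23% of their own level in those cells. The part of endothelial RNA in this ratio was not tested. Pcbp2 was highest in vascular smooth muscle-like cells, at 330.0 CPM on day 7. In endothelial-like cells 0 of 6 genes of this list passed on day 1, where 6.28% of all genes did, Hif1a passed on day 3 and Fbxl5, the iron sensor that marks IRP2 for degradation, on day 7, so that 1 of 6 passed on each of these days, where 5.95% and 11.3% of all genes did. Over all classes and days the list passed 26 times in 106 comparisons and was lower 5 times, against 14.1% and 12.7% of all genes.

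Of 11 genes of heme uptake and breakdown, 4 could be compared in microglia-like cells on day 1. Blvrb, a biliverdin reductase that acts after heme oxygenase, passed with 2.96 (1.96 to 4.68) and Hmox2, the constitutive heme oxygenase, was lower by at least 1.5, where 25.6% of all genes were higher and 31.6% lower. Over all classes and days the list passed 16 times in 90 comparisons and was lower 18 times, against 14.1% and 12.7% of all genes. Blvrb also passed on day 1 in endothelial-like, pericyte-like and astrocyte-like cells and on days 3 and 7 in microglia-like cells, where 6.28%, 11.5%, 20%, 15.2% and 12.9% of all genes passed. The heme exporter Abcg2 was highest in endothelial-like cells, at 1104 CPM on day 1, and the heme transporter Slc48a1 in oligodendrocyte-like cells, at 1082 CPM on day 3. Lrp1, a receptor for heme bound to hemopexin, had a ratio of 3.09 (1.85 to 5.50) in oligodendrocyte-like cells on day 1.

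Of 9 genes of heme synthesis, 1 could be compared in microglia-like cells and 0 passed on any day, where 25.6%, 15.2% and 12.9% of all genes passed on days 1, 3 and 7. Over all classes and days the list passed 1 time in 33 comparisons and was lower 5 times, against 14.1% and 12.7% of all genes. Alas2, the red cell enzyme of the first step, was highest in erythrocyte-like cells at 2531 CPM in sham and had a ratio of 0.187 (0.0869 to 0.371) in endothelial-like cells on day 7, where hemoglobin was also lower, at 478 CPM against 1245 in sham. Its housekeeping counterpart Alas1 was highest in endothelial-like cells, at 489 CPM on day 3. Of 9 genes of mitochondrial iron and iron-sulfur assembly, 4 could be compared in microglia-like cells on day 1. Slc25a39, a carrier of glutathione into mitochondria, passed with 2.35 (1.45 to 4.04) and Glrx5, a glutaredoxin of iron-sulfur assembly, with 2.22 (1.35 to 3.89), while the iron importer Slc25a37 was lower, where 25.6% of all genes were higher and 31.6% lower. This list passed 7 times in 71 comparisons over all classes and days and was lower 5 times, against 14.1% and 12.7% of all genes. Iscu, the scaffold of that assembly, was highest in vascular smooth muscle-like cells, at 325 CPM on day 3, and Slc25a39 in erythrocyte-like cells, at 317 CPM in sham.

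Of 10 genes of the NRF2 and BACH1 axis, the pair of regulators that acts on Hmox1 and the ferritin genes, 2 could be compared in microglia-like cells and 0 passed on any day, against the same shares of all genes, which for 2 genes is no result. Over all classes and days its genes passed 4 times in 47 comparisons and were lower 3 times, against 14.1% and 12.7% of all genes. Nfe2l2, which encodes NRF2, was highest in microglia-like cells, at 237 CPM on day 3. Slc7a11, the cystine importer, had a ratio of 5.29 (3.14 to 9.46) in endothelial-like cells on day 1 and its highest level, 1793 CPM, in fibroblast-like cells on day 1. Gsr, glutathione reductase, had a ratio of 2.21 (1.02 to 5.67) in microglia-like cells on day 1.

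The genes whose levels followed a member most closely were sought over 24 points, 6 classes in 4 libraries, among 4840 genes. The points share libraries and classes, so the correlations of log2(CPM + 10) are descriptions only. Closest to Fth1 were Ptp4a1 (Pearson r = 0.91), Cd82 (0.90) and Adssl1 (0.88). Closest to Ftl1 were Cndp2 (0.93), Edem1 (0.93) and Unc93b1 (0.90), and closest to Hmox1 were Ssr4 (0.91), Npl (0.87) and Il1b (0.86). Between members, Fth1 lay closest to Trf (0.80) and Ftl1 to Hmox1 (0.77), while the 2 ferritin chains had a correlation of 0.20 with each other. Over these 24 points, heavy chain levels thus ran with Trf and light chain levels with Hmox1. Both Fth1 and Trf were highest in the oligodendrocyte-like points, at 27843 to 40442 and 3196 to 7275 CPM. The correlation without that class was not computed.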

How the data were processed

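The files hold UMI counts as deposited, in 1 matrix of genes and cells for each of the 4 libraries (1 per group), made with Cell Ranger 4.0.0 according to the file headers. The labels name Cell Ranger 3.0.1, Seurat 4.1.2 and the human build GRCh38, whereas the gene identifiers are of mouse. The deposited counts were used unchanged. The members and lists were chosen with earlier results of these data known. A cell was kept if 200 to 3000 genes were detected in it and mitochondrial genes gave no more than 10% of its UMIs. A cell joined a class with at least 3 UMIs from 2 markers of that class, at least 0.2 of the typical marker level and at least 2 times the next class. Genes were compared with at least 50 CPM in 1 of the libraries and 20 UMIs in both together. Clusters (2000 variable genes, 30 components, resolution 1, iron and heme genes left out) gave the same name as the gate to 98.1% of 37016 cells. Doublets were left in. Intervals are exact Poisson, conditional and Clopper-Pearson at 95%, and the scripts were tested on simulated data. Genes named are the members, per list the 2 with the highest level and up to 2 with the largest ratio in microglia-like, endothelial-like or oligodendrocyte-like cells (at least 50 UMIs), and the 3 most like Fth1, Ftl1 and Hmox1. Some other genes that passed in a list are named, and 1 gene that the rule selects is not reported here. Ftl1 near-copies (Ftl1-ps1) held 0.518% as many UMIs as Ftl1. PCR is removed by the UMIs. Python 3.11.15, numpy 2.4.6, scipy 1.17.1, pandas 2.3.3, scanpy 1.11.5 and igraph 0.11.9 were used. Alternatives were other gene and mitochondrial limits, cluster names, a stricter gate, removal of high doublet scores, per-cell CPM, a reduced total, thinning and other folds.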

Additional observations from a re-analysis of the deposited data

Results flagged for a closer look

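Hmox1 lay above sham on day 1 and below it on day 7 in 2 classes, with intervals that leave out 1 on both days, and this change of side between days was not tested because each day is 1 library. In endothelial-like cells the ratio over sham was 2.67 on day 1, 1.65 on day 3 and 0.604 on day 7. In oligodendrocyte-like cells it was 2.54 on day 1 and 0.493 on day 7.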

How the results depend on the processing

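The day 1 ratios of microglia-like cells stayed above 1.5 under all 8 alternatives, from 2.15 to 2.36 for Fth1 and from 2.60 to 3.38 for Ftl1. For Fth1 the mean of each cell's CPM gave 2.36, the total without abundant genes 2.34 and thinning 2.33. For Ftl1 a limit of 6000 genes gave 3.05, removal of the highest Scrublet scores (added after the data were seen) 2.87, the mean of each cell's CPM 3.15, the reduced total 2.91 and thinning 3.38. The number of classes past 1.5 for Fth1 was 5 with the main settings. It was 3 with the stricter gate, with the reduced total and at a fold of 2. At a fold of 1.5 it was also below 5 under the other alternatives, except for the mean of each cell's CPM. There the oligodendrocyte-like class passed and the neuron-like class did not. For Ftl1 and for both chains the number of classes was 1. It was 2 with the limit of 6000 genes, with cluster names and at a lower fold, the added class being astrocyte-like. Astrocyte-like ratios ran from 1.36 to 2.80 for Fth1 and from 0.980 to 2.04 for Ftl1, and their cause was not tested. The endothelial-like Fth1 ratio ran from 2.11 to 2.44. Of 171 ratios of the 8 genes, 63 had a value on the other side of 1 under at least 1 alternative. Among those past 1.5 in either direction with an interval that leaves out 1, 4 ratios did so in 5 cases: Trf in vascular smooth muscle-like cells on day 1 with thinning (0.842) and on day 3 with cluster names (0.757) or without the highest Scrublet scores (0.739), Slc40a1 on day 1 in oligodendrocyte-like cells without those scores (0.784) and in neuron-like cells with 6000 genes (1.22). The choroid plexus-like Fth1 ratio ran from 0.755 to 1.18. The Hmox1 ratio of microglia-like cells ran from 6.31 to 23.3 on day 1, from 1.97 to 7.23 on day 3 and from 0.895 to 4.62 on day 7. Removal of Scrublet's own calls was not run, because its threshold marked 0.0142% to 4.64% of cells. No paired analysis was possible because each group is 1 library. With 130 microglia-like cells in sham, shares of rare genes are known poorly, and 10919 cells above 3000 genes were left out of all values but those with 6000.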
